A study of Mus musculus with 19 samples.

Results

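Transcripts annotated as substrates of nonsense-mediated decay (NMD) were followed through RNA sequencing of mouse neural progenitor cells with and without Mettl14. The members are the targets whose GENCODE M21 transcript type is nonsense_mediated_decay (genome GRCm38). They number 6924 of the 150173 targets quantified in the deep libraries and lie in 4422 genes, of which 2890 have 1 such transcript. The annotation and not any measured value chose them. For comparison, 57960 targets were annotated as protein-coding and 21206 as retained-intron transcripts.

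NMD is a surveillance pathway that degrades mRNAs on which translation stops too early. In mammals a stop codon is read as premature mainly when an exon junction complex, deposited at splice junctions, remains downstream of it. UPF1 is then recruited and activated by the SMG1 kinase, and SMG5 and SMG6 take part in the cutting and decay of the RNA. Many genes for splicing factors and ribosomal proteins make such transcripts by including a so-called poison exon or by skipping an exon, and thereby lower their own output. Steady-state sequencing measures what is left after decay, so a level reflects both splicing and degradation.

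The cells were neural progenitors (NPCs) cultured from embryonic cortices of Mettl14 WT and Mettl14 cKO mice, grown on Matrigel in medium with heparin, B27 and 20 ng/ml of both EGF and FGF2. METTL14 forms, with the catalytic subunit METTL3, the complex that writes N6-methyladenosine (m6A) on mRNA. There were 4 WT and 4 KO "ladder" libraries, in which poly(A) RNA was separated by size into 7 bands and sequenced as 75-base read pairs, and 3 WT "standard" libraries of 50-base single reads without size separation. Nanopore long reads came from native RNA and from cDNA of both genotypes, with 2 replicates of each pooled before the deposited transcript assembly, so that they carry no replicate error. The labels give neither the Cre driver nor the embryos' age or sex, and nothing says that replicates came from separate cultures. The p-values below therefore measure the spread between these samples, which may be technical.

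The ladder libraries held 103752444 to 126921887 estimated counts and the standard libraries 12084507 to 13987929. The level of Mettl14 itself was 29.0 CPM on average over WT ladder libraries and 7.95 over KO. Marker lists of the cell types such cultures can hold were read at gene level, where 26.4% of all genes were higher and 27.2% lower in KO (edgeR adjusted p of 0.05). Of 8 progenitor markers 2 were higher (Nes and Notch1) and 2 lower (Vim and Fabp7), and their summed level was 7828 to 8227 CPM in WT and 5294 to 6509 CPM in KO, a difference carried by Fabp7 and Vim. All 5 neuronal markers were lower (sums of 41.6 to 46.6 and 15.4 to 18.2 CPM). Of 7 genes of the oligodendrocyte lineage 2 were higher and 4 lower, with Pdgfra at 100.0 and 5.23 CPM and Sox10 at 16.2 and 0.932 CPM on average, although the sums were 1313 to 1959 CPM in WT and 1942 to 2325 CPM in KO. Of 5 astrocyte markers Gfap, Aqp4 and S100b were higher (log2 0.86 to 1.38) and Aldh1l1 lower (sums of 1502 to 1740.2 and 1264 to 1579 CPM). Microglial, endothelial and meningeal fibroblast markers were low, with sums of at most 2.22, 4.74 and 3.85 CPM in any ladder library. The microglial sums (1.56 to 2.22 CPM) and the meningeal ones (3.02 to 3.85 CPM) were higher in every KO than in every WT library. Ribosomal RNA targets took 4.63 to 9.45% of the counts in WT and 2.59 to 3.10% in KO ladder libraries, and were not among the targets of the standard files. The Y-linked gene Ddx3y averaged 0.0129 and 4.39 CPM in WT and KO, and Xist 173 and 55.9 CPM. These differences ran along with genotype, so a comparison of KO with WT does not separate them from the loss of Mettl14. Their part in the results was not tested. In bulk RNA, fewer cells of a type and less RNA per cell cannot be told apart.

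The annotated structures come from the same annotation as the label, so they describe it and do not test it. Of the 6923 members with an annotated stop codon, 38 had it 50 bases or fewer before the last exon junction and 13 had no junction after it. The median distance from the stop to the last junction was 332 bases, with a median of 3 junctions in between, and 1672 members had a single downstream junction. Members were shorter than multi-exon coding targets, with a median of 1245 bases (198 to 22143) against 1897. The start of the transcript was marked as not found for 2024 members, so their reading frame rests on an incomplete 5' end.

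Each member was compared with the protein-coding transcript of its gene that had the highest TPM in WT ladder libraries, which was possible for 6820. Differing transcript ends were not counted beside an event, so a member with 1 kind of event alone can also differ at its ends. The most frequent single event was skipping of exons of the coding transcript (1546 members, median 139 bases skipped), and in 1422 of these, or 92.0%, the skipped length was no multiple of 3, which shifts the frame. A further 1269 members carried extra exons as their only kind of event (median 118 bases). In 1028 of them, or 81.0%, the stop codon lay inside an extra exon, and in 69.2% the extra length was no multiple of 3. Alternative 5' splice sites alone marked 763 members and alternative 3' splice sites alone 896. In 275 members the sole event was an intron spliced out downstream of the normal stop, which leaves the reading frame intact and puts a junction behind it, and 325 members in all ended at the coding transcript's own stop codon. A retained intron alone marked 82, and 1800 combined more than 1 kind of event.

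The following pairs show how the early stops arise in the members whose values are described below. Each NMD transcript is printed from the last shared codons to its stop codon, which is in capitals, followed by the coding transcript of the same gene over the same number of bases, with no stop in frame there. The bases were read from the GENCODE M21 transcript sequences (GRCm38), 5' to 3' on the RNA strand. The first 4 pairs belong to transcripts that rose in KO libraries. Abhd16a-207 skips a 67-base exon, and its frame then closes 8 bases after the split, at chr17:35091577-35091579. Kank2-203 skips 88 bases and stops at chr9:21774665-21774667. Ppt1-203 and Fam20c-203 stop inside extra exons of 103 and 78 bases, at chr4:122843365-122843367 and chr5:138756721-138756723.
Abhd16a-207: gcagacagcatcctggcactggttactTGA
Abhd16a-201: gcagacagcatcctggcactggcttcagtc
Kank2-203: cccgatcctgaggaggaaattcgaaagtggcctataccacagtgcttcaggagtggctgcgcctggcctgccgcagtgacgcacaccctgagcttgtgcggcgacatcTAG
Kank2-201: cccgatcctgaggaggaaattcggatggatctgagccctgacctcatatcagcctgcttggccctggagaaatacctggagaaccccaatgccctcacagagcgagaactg
Ppt1-203: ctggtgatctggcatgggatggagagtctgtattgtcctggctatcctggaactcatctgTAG
Ppt1-201: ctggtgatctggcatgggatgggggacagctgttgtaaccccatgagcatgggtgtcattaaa
Fam20c-203: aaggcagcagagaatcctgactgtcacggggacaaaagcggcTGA
Fam20c-201: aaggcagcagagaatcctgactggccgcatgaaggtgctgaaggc

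The next pairs belong to transcripts that fell in KO libraries. Gusb-206 skips a 182-base exon and stops at chr5:130000031-130000033, and Glod4-207 uses another 3' splice site and stops at chr11:76239459-76239461.
Gusb-206: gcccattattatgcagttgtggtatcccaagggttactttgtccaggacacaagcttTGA
Gusb-201: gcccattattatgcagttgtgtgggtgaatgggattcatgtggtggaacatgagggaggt
Glod4-207: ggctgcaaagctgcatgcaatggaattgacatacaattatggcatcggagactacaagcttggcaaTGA
Glod4-201: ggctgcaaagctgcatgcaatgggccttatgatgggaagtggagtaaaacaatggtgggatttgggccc

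The last 4 pairs are from splicing-related genes and from the members with the strongest long-read support. Luc7l-206 carries a 71-base extra exon that shifts the frame, so that its stop (chr17:26257936-26257938) is read out of frame from a stretch that the coding transcript also contains. Srsf6-201 stops inside the 268-base poison exon of Srsf6, at chr2:162932964-162932966. Ddx5-208 reads 5 bases past the end of a coding exon, to the end of a stop codon at chr11:106783954-106783956. Cenpa-202 stops inside a 137-base extra exon at chr5:30669733-30669735, after 85 shared coding bases.
Luc7l-206: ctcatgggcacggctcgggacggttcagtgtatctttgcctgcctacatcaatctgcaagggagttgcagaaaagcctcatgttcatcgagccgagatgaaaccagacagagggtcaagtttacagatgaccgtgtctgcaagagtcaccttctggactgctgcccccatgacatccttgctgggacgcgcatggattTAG
Luc7l-201: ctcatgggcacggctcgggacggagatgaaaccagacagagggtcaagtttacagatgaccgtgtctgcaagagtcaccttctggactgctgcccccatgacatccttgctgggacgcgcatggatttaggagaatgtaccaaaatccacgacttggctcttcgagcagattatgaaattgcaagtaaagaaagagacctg
Srsf6-201: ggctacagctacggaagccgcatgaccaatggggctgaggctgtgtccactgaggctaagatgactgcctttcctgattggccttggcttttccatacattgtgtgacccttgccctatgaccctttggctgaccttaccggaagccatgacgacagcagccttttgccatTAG
Srsf6-203: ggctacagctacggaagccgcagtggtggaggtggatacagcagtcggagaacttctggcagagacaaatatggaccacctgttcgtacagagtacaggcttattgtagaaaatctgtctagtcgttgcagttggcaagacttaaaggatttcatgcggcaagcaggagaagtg
Ddx5-208: gatgtggcctccagagggctaggtTAG
Ddx5-201: gatgtggcctccagagggctagatgtg
Cenpa-202: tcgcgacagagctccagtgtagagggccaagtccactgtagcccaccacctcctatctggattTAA
Cenpa-205: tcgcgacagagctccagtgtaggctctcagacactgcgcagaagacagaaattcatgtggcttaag

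NMD transcripts made up a small part of the RNA. They took 2.90, 2.61, 2.74 and 2.69% of the counts in the WT ladder libraries and 2.55, 2.34, 2.36 and 2.51% in the KO ladder libraries, so that every KO library lay below every WT library. The mean was 2.73% ± 0.124 (SD, n = 4) in WT and 2.44% ± 0.103 (SD, n = 4) in KO. One transcript, Lars2-209, held 24.7 to 34.5% of all NMD counts in WT and 15.0 to 21.6% in KO. Without it the shares were 1.92 to 2.04% in WT and 1.96 to 2.06% in KO and overlapped. As shares of TPM, which divides by length, the class took 1.64 to 1.83% in WT and 1.69 to 1.87% in KO, again overlapping. Over the targets present in every file, however, the shares of TPM were 3.02 to 3.35% in WT and 2.76 to 2.95% in KO, without overlap and with Lars2-209 included. No p is given for these shares, which sum over the members.

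**Figure D1:**
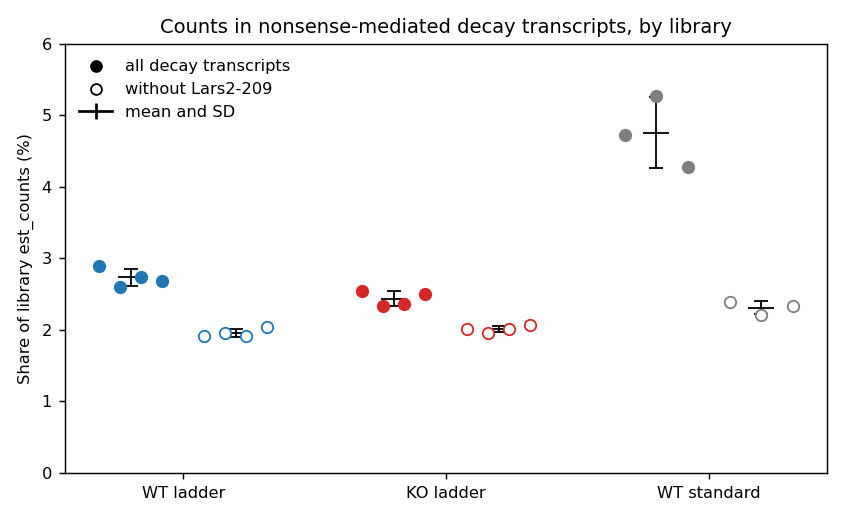
Share of each library's estimated counts in NMD transcripts (percent, y axis), with and without Lars2-209, for WT ladder, KO ladder and WT standard libraries. Points are libraries, and the cross bars with whiskers are group means and SD. Shares are over each library's own targets, which differ between ladder and standard libraries, so these are not on the same basis. Over the targets in every file, shares without Lars2-209 were 2.33 to 2.42% in WT ladder and 2.21 to 2.22% in standard libraries. With Lars2-209 the KO points (2.34 to 2.55%) lie below the WT points (2.61 to 2.90%), and without it the ladder groups overlap.

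Lars2-209 is a transcript of the mitochondrial leucyl-tRNA synthetase gene (chr9:123366954-123462666, 3756 bases), and its difference from the coding transcript was not of a classified kind. It reached 2099, 1563, 1665 and 1505 TPM in the WT ladder libraries and 1160.1, 926, 901 and 959 TPM in the KO ladder libraries, without overlap. In the standard libraries it stood at 9976, 13420.1 and 8133 TPM. The coding transcript Lars2-201 was between 9.20 and 22.4 TPM in every ladder library. The fall of Lars2-209 in KO was 0.82 on the log2 scale (log2 -0.82, SE 0.21, edgeR quasi-likelihood test, Benjamini-Hochberg adjusted p 0.015), and ribosomal RNA targets moved in the same direction, as given above.

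The last exon of Lars2-209 is chr9:123461499-123462666, 1168 bases long. StringTie transcripts overlapping this exon summed to 140883 TPM in the WT cDNA assembly and 119334 TPM in the KO cDNA assembly, against 32.2 and 45.7 TPM in the native RNA assemblies. These sums cover whole transcripts, and the most abundant ones differed in extent. In the KO cDNA assembly it lay within the exon, at chr9:123461793-123462206 with 73967.5 TPM, and in the WT cDNA assembly it ran from upstream into the exon, over chr9:123393657-123461996 with 43830.5 TPM. No assembly contained the intron chain of Lars2-209. Shares of the class are therefore given with and without it.

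Next to it stood transcripts of ribosomal protein and translation genes. Rpsa-206, from the gene of a small-subunit protein that is also a laminin receptor, was the highest member, with 1710.5, 2098, 1459.5 and 1822 TPM in WT and 2052, 1995, 1915 and 2599.6 TPM in KO ladder libraries. It took 79.5 ± 0.795% (SD, n = 4) of the counts of Rpsa in WT and 80.7 ± 0.302% (SD, n = 4) in KO, and its level did not pass the test (log2 0.28, SE 0.18, adjusted p 0.24, edgeR). The 10 highest members also included Rpl13a-216, Rpl14-205, Rps19-205, Eef1b2-201, Eef1b2-205 and Polr2f-203. Eef1b2 encodes a subunit of the elongation factor that recharges EEF1A, and Polr2f a subunit shared by the RNA polymerases. None of these 6 passed the test between genotypes, with adjusted p from 0.053 (Eef1b2-205) upward in edgeR. Ribosomal protein genes have near-identical processed copies in the genome, so how their reads were divided is uncertain. Eef1b2-201 took 43.1% of its gene's counts on average in WT ladder but 0.414% in WT standard libraries. Eef1b2-205 took 30.3 and 43.2%. The chain of Eef1b2-201 was in no StringTie assembly, and in FLAIR only in that of cDNA KO.

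Most members were scarce. Of the 6924, 868 had no count in any ladder library, 2094 had 10 or more counts in all 8, and 575 reached 1 TPM or more in all 8 (661 in every WT and 707 in every KO library). Within genes the class was usually minor. Over the 3006 genes with such a transcript and 5 CPM or more, the median share of the gene's counts in NMD transcripts was 1.09 to 1.26% in WT ladder libraries and 0.924 to 0.987% in KO ladder libraries. Genes with 10% or more of their counts in NMD transcripts numbered 753 to 784 in WT and 719 to 735 in KO. These 3 measures rest on how the quantifier divided reads among overlapping isoforms.

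The first comparison asked which NMD transcripts differed in level between KO and WT ladder libraries. Ddx3y, Xist and cell type markers differed along with genotype, as given above, and their part was not tested. Of the members, 2971 had enough counts to be tested. In KO ladder libraries 401 (13.5%) were higher and 445 (15.0%) lower at an adjusted p of 0.05 (edgeR quasi-likelihood test, Benjamini-Hochberg over all 59136 targets tested), whereas 18.2% of all targets were higher and 19.1% lower (37.3% in either direction). The libraries of the 2 genotypes did not overlap for 369 of the higher and 393 of the lower, against 17.0% and 17.3% (34.3% in either direction) of all targets. In all, 28.5% of the tested members were called, beside those 37.3% of targets. Their median log2 fold change was -0.11, beside -0.06 over all targets, 0.09 over coding and -0.42 over retained-intron transcripts.

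Counts were also taken by kind of event, and are to be read beside the 18.2% of all targets that were higher and the 19.1% lower. Among members with an extra exon alone, 73 of 569 were higher and 95 lower (median log2 -0.20). Among those with skipped exons alone, 88 of 488 were higher and 56 lower (median log2 0.07). Alternative 5' splice sites alone gave 45 higher and 38 lower of 338 (median log2 -0.02). Alternative 3' splice sites alone gave 41 and 38 of 363 (median log2 -0.11). Retained introns alone gave 4 higher and 15 lower of 49 (median log2 -0.37), beside the 6.03% and 26.4% of the retained-intron class. Introns behind the normal stop alone gave 27 higher and 23 lower of 120, although their median log2 was -0.36. The difference between these kinds was not tested.

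The calls of members were set beside those of their host genes. A gene's total includes the member itself, so agreement in direction is partly built in, and other classes were not counted this way. Of the 401 higher members, 244 lay in genes that were also higher, 22 in genes that were lower and 135 in genes that were not called. Of the 445 lower members, 226 lay in genes that were lower, 49 in genes that were higher and 170 in genes not called. Among all genes 26.4% were higher and 27.2% lower (53.6% in either direction), and among the 3880 tested genes with an NMD transcript 978 and 982 were.

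The member with the largest rise was Abhd16a-207 (chr17:35089314-35102956, 1824 bases), from the gene of a phosphatidylserine lipase. After rounding to whole counts it had 0 in all 4 WT ladder libraries, where its share of the gene was at most 0.0141%. In the KO ladder libraries it had 6.01, 5.22, 13.3 and 6.49 CPM. Against a floor of 3 counts over the WT group this is at least 1192-fold higher (edgeR adjusted p 1.9e-04). In KO it took 25.5, 20.7, 48.6 and 25.3% of the gene's counts, while the gene itself did not pass the test (log2 -0.28, edgeR adjusted p 0.064).

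Kank2-203 (chr9:21768062-21798503) comes from the gene of an adaptor at focal adhesions. It had 0, 0.0478, 0 and 0 CPM in the WT ladder libraries and 1.79, 2.39, 3.04 and 4.09 CPM in the KO ladder libraries, with no overlap (log2 7.67, SE 0.90, adjusted p 4.9e-04, edgeR). The gene rose too (log2 1.60, edgeR adjusted p 1.3e-06). Ppt1 encodes palmitoyl-protein thioesterase, a lysosomal enzyme lost in a neurodegenerative storage disease. Ppt1-203 (chr4:122836250-122859175), whose early stop lies in the extra exon shown above, had 0.116, 0.135, 0.322 and 0.414 CPM in the WT ladder libraries and 16.0, 33.7, 12.4 and 40.2 CPM in the KO ladder libraries. All KO values lay above all WT values (log2 6.69, SE 0.64, adjusted p 2.1e-04, edgeR). Its share of Ppt1 was 0.377 ± 0.206% in WT and 28.7 ± 15.0% in KO (SD, n = 4 each), beside a rise of the whole gene of log2 0.43.

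Fam20c encodes the Golgi kinase that phosphorylates secreted proteins. Fam20c-203 (chr5:138755083-138809381) had 7.30, 2.99, 4.91 and 10.3 CPM in the WT ladder libraries and 87.9, 132, 102 and 123 CPM in the KO ladder libraries. The groups were far apart (log2 4.13, SE 0.39, adjusted p 1.8e-04, edgeR), and the gene as a whole rose as well (log2 2.73, edgeR adjusted p 1.2e-06). Invs encodes inversin, a protein of the primary cilium. Invs-203 (chr4:48279826-48427351), which skips 2 exons of 275 bases together, had 0.193, 0.279, 0.256 and 0.144 CPM in the WT ladder libraries and 3.98, 4.61, 5.60 and 4.31 CPM in the KO ladder libraries. It took 1.84 ± 0.585% of Invs in WT and 32.1 ± 4.18% in KO (SD, n = 4 each), while the gene did not pass the test (log2 0.19, edgeR adjusted p 0.24).

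The other 5 of the 10 named rises were Sh3bp1-204, Rfx5-212, Slco1c1-202, Tacc2-209 and Kdm5d-204, with log2 values of 5.77, 4.96, 4.73, 4.09 and 3.96. Rfx5 encodes a transcription factor of MHC class II genes, and Tacc2 a centrosomal protein. Slco1c1 encodes a thyroid hormone transporter. The whole Slco1c1 gene rose from 0.375 ± 0.0591 to 17.5 ± 1.23 CPM (SD, n = 4 each), and the share of Slco1c1-202 in it did not pass the usage test. The call of Slco1c1-202 was lost without the filter on low counts (adjusted p 0.051). Rfx5-212 was lost without KO library 2, KO library 3 or WT library 1, or without the filter on low counts (adjusted p up to 0.081). Kdm5d-204 lies on the Y chromosome, and Ddx3y differed between the genotypes in the same direction, as given above.

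Fntb-203 (chr12:76765589-76920659), from the gene of the beta subunit of protein farnesyltransferase, showed the largest fall. It had 2.16, 2.27, 2.15 and 2.04 CPM in the WT ladder libraries and 0 counts in all 4 KO ladder libraries. Against 3 counts over the KO group it was at least 309.8-fold lower (edgeR adjusted p 2.5e-05), and the gene did not pass the test (log2 0.09, edgeR adjusted p 0.57). Ppp1cb encodes a catalytic subunit of protein phosphatase 1. Ppp1cb-203 (chr5:32459152-32517433) keeps the normal stop and splices an intron behind it. It had 8.42, 18.7, 4.57 and 2.22 CPM in the WT ladder libraries and 0.0936, 0, 0 and 0 CPM in the KO ladder libraries, with no overlap (log2 -8.44, SE 1.29, adjusted p 0.0019, edgeR). The gene total of Ppp1cb did not pass the test (log2 -0.11, edgeR adjusted p 0.5).

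Vldlr encodes a receptor for the migration signal Reelin. Vldlr-201 (chr19:27217458-27249763) had 11.1, 30.2, 9.76 and 16.0 CPM in the WT ladder libraries and 0.328, 0.438, 0.857 and 0.201 CPM in the KO ladder libraries. It took 19.6 ± 6.79% of Vldlr in WT and 0.834 ± 0.330% in KO (SD, n = 4 each), and the gene fell less (log2 -0.75, edgeR adjusted p 0.0081). Gusb encodes the lysosomal enzyme beta-glucuronidase. Gusb-206 (chr5:129989023-130002828) had 3.55, 6.34, 10.1 and 10.1 CPM in the WT ladder libraries and 0.636, 0, 0.246 and 0.146 CPM in the KO ladder libraries and fell (log2 -4.87, SE 1.00, adjusted p 0.0071, edgeR), whereas its gene rose (log2 1.24, edgeR adjusted p 2.6e-06). Glod4-207 (chr11:76221607-76243651) showed the same opposition. It had 15.0, 14.9, 8.52 and 7.14 CPM in the WT ladder libraries and 0.477, 1.05, 0.164 and 0.429 CPM in the KO ladder libraries (log2 -4.43, SE 0.58, adjusted p 8.1e-04, edgeR), beside a rise of the Glod4 gene (log2 0.36, edgeR adjusted p 0.017).

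The remaining named falls were Mtmr2-203 (log2 -6.26), Syt16-201 (-4.23), Uqcc1-212 (-4.20), Liph-203 (-3.75) and Cul2-202 (-3.56). Mtmr2 encodes a phosphoinositide phosphatase, Syt16 an atypical synaptotagmin, Uqcc1 an assembly factor of respiratory complex III, Liph a phospholipase and Cul2 the scaffold of a ubiquitin ligase. For Syt16 and Liph the whole gene fell by a similar size (log2 -3.37 and -3.86). The Uqcc1 gene did not pass the test (log2 0.06), although Uqcc1-212 went from 11.8 ± 2.96% to 0.601 ± 0.596% of its counts (SD, n = 4 each).

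**Figure D2:**
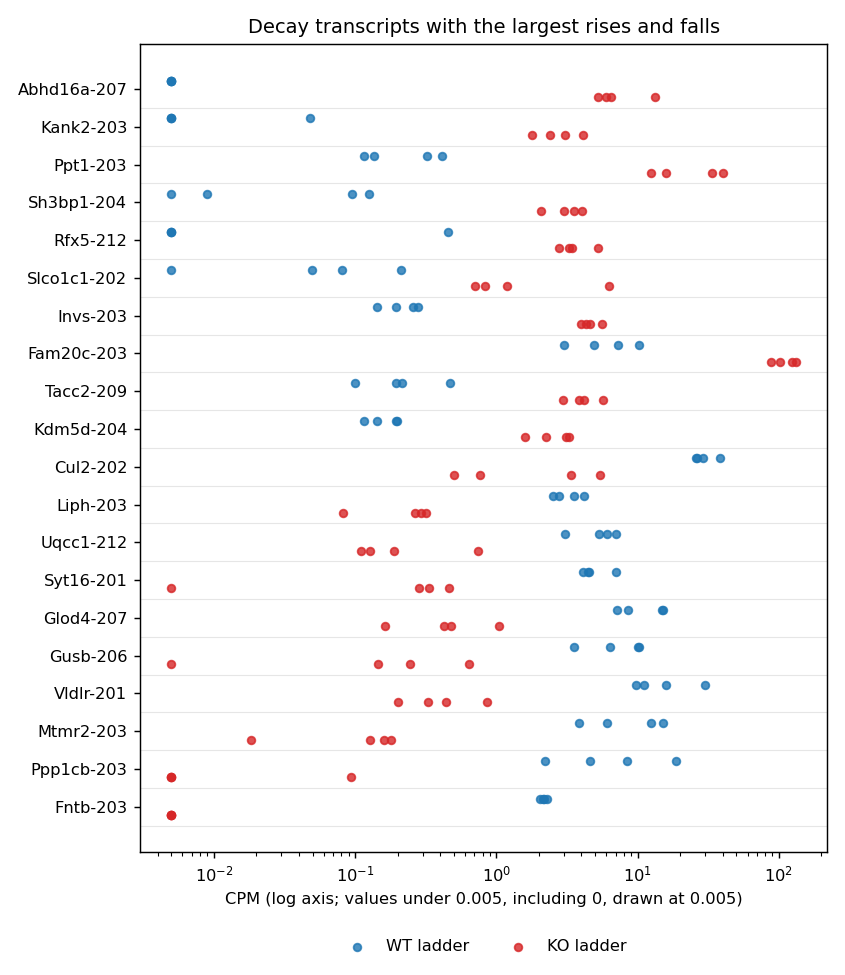
Level (CPM, logarithmic x axis, with values under 0.005 drawn at 0.005) of the 20 NMD transcripts with the largest rises and falls in each of the 4 WT and 4 KO ladder libraries, 1 point per library. The genotypes do not overlap for any of the 20, which the rule that named them required. After rounding to whole counts, Abhd16a-207 has no count in WT and Fntb-203 none in KO.

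A second comparison asked whether the share of a gene's RNA in an NMD transcript changed, whatever the gene did. In simulated data, where few transcripts were changed, a large part of the calls of its test, diffSpliceDGE, fell in unchanged genes. Of 2896 members tested with diffSpliceDGE, 106 had a higher and 156 a lower share in KO (Benjamini-Hochberg adjusted p of 0.05 over all 40515 transcripts), and the shares of the libraries did not overlap for 77 and 123. Over all transcripts 6.92% were called, 2.74% higher and 4.18% lower, beside 9.05% of the members. Without overlap they were 5.72% (2.19% higher and 3.53% lower), beside 6.91% of the members. Moves of 10 percentage points or more without overlap numbered 31 up and 40 down (0.906% and 0.945% of all transcripts, 1.85% in either direction). With NMD transcripts summed per gene, 162 of 2293 genes had a higher and 301 a lower NMD share, or 20.2% against 13.2% of all gene and class pairs (2.96% higher and 10.2% lower). Without overlap these were 115 and 237 (2.34% and 8.60% of all pairs, 10.9% in either direction).

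Among the named rises, Luc7l-206 made the largest move. Luc7l encodes a protein of the U1 snRNP, which recognises 5' splice sites. Luc7l-206 took 11.3, 8.29, 19.2 and 18.1% of its gene's counts in the WT ladder libraries and 63.0, 56.6, 61.6 and 57.6% in the KO ladder libraries (diffSpliceDGE adjusted p 0.027), with the gene not passing the test (log2 -0.06, edgeR adjusted p 0.68). This call was lost when any KO library or WT library 2 was left out (adjusted p up to 0.11), while the rise in level was kept throughout. Haus5, a subunit of the augmin complex that nucleates spindle microtubules, showed a similar pattern. Haus5-203 took 9.54, 4.77, 6.45 and 3.90% of its gene's counts in the WT ladder libraries and 34.8, 49.6, 38.5 and 47.7% in the KO ladder libraries (adjusted p 2.3e-08).

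Gak encodes a kinase that helps to uncoat clathrin vesicles. Gak-203 took 9.86, 21.5, 14.3 and 10.2% of its gene's counts in the WT ladder libraries and 39.1, 36.2, 64.8 and 49.8% in the KO ladder libraries (diffSpliceDGE adjusted p 9.9e-04). Mms19 acts in the delivery of iron-sulfur clusters to DNA repair enzymes. Mms19-204 took 0, 0.0233, 5.61 and 1.05% of its gene's counts in the WT ladder libraries and 38.0, 34.5, 28.3 and 37.3% in the KO ladder libraries (adjusted p 6.2e-07), although its level missed the threshold (log2 4.08, SE 1.43, adjusted p 0.056, edgeR). Slc37a3-206 and Xylt2-204 moved from 2.90 to 38.5% and from 14.1 to 47.7% on average. The call of Xylt2-204 was lost without KO library 2 or 4 or WT library 1 or 3 (adjusted p up to 0.11), and that of Slc37a3-206 with limma on log odds (0.058). Invs-203 and Abhd16a-207, described above, complete the 8.

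Among the falls, Cul2-202 took 55.8, 76.6, 74.2 and 60.2% of its gene's counts in the WT ladder libraries and 13.1, 2.64, 18.5 and 2.29% in the KO ladder libraries (diffSpliceDGE adjusted p 5.2e-04). The gene itself fell (log2 -0.81, edgeR adjusted p 2.5e-04). Mtmr2-203 took 34.0, 39.3, 14.9 and 20.4% of its gene's counts in the WT ladder libraries and 0.736, 0.753, 0.0777 and 0.603% in the KO ladder libraries (adjusted p 3.4e-08). Adgrb1 encodes an adhesion receptor of the brain, and Adgrb1-206 took 37.3, 52.3, 30.7 and 37.8% of its gene's counts in the WT ladder libraries and 8.16, 6.78, 9.36 and 7.20% in the KO ladder libraries (adjusted p 0.013) and the gene did not pass the test (log2 0.02, edgeR adjusted p 0.9). Without KO library 2 the adjusted p of Adgrb1-206 was 0.052.

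The other 5 named falls in share were less stable. Zfp383-202 went from 68.8 to 26.9%, Capn7-202 from 82.7 to 43.5%, Rragc-205 from 50.1 to 18.9%, Tgds-202 from 51.2 to 20.4% and Ermp1-201 from 54.5 to 27.1% on average. Rragc encodes a Rag GTPase that signals amino acid supply to mTORC1, and Capn7 an atypical calpain. Each of the 5 lost its call when any of several single libraries was left out, with adjusted p up to 0.18 for Zfp383-202 and Tgds-202, 0.17 for Rragc-205, 0.14 for Capn7-202 and 0.11 for Ermp1-201. Those of Zfp383-202, Capn7-202, Tgds-202 and Ermp1-201 were also lost without the filter on low counts, and that of Zfp383-202 over the targets shared by all files.

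**Figure D3:**
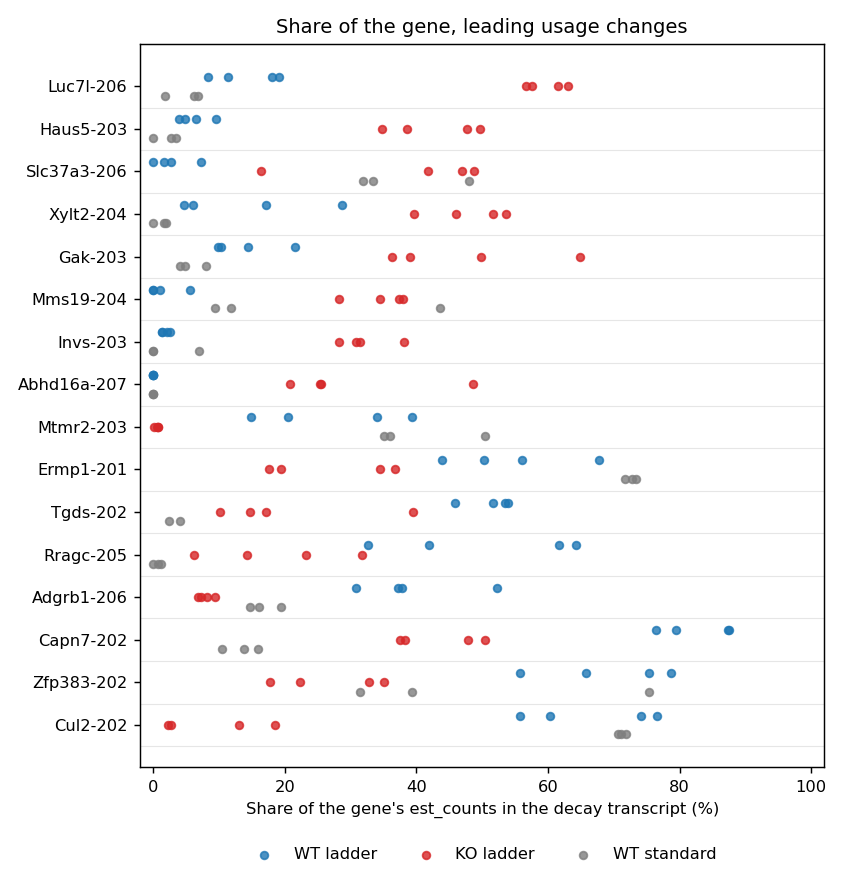
Share of the gene's estimated counts (percent, x axis) in the 16 NMD transcripts named for usage, 1 point per WT ladder, KO ladder and WT standard library. The ladder genotypes do not overlap for any of the 16, which the rule that named them required, and the means move from 14.2 to 59.7% for Luc7l-206 and from 66.7 to 9.14% for Cul2-202.

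The standard WT libraries, which entered neither of these tests, gave a second reading of WT shares. Of the 32 transcripts named for level or usage, 30 had ladder shares that did not overlap between genotypes, and each standard library was placed on the WT or the KO side of the midpoint between the ladder means. For 15 of the 30 every standard library lay on the WT side, for 9 every one lay on the KO side and for 6 they were divided. This sorting was chosen after the values had been seen.

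Transcripts with a higher share in KO had their standard values on the WT side in 9 cases, on the KO side in 1 and divided in 4. Haus5-203, Gak-203 and Luc7l-206 were on the WT side, at 2.06, 5.66 and 4.90% on average. Slc37a3-206 took 47.9, 33.4 and 31.9% of its gene in the standard libraries, on the KO side. The divided ones were Mms19-204 (43.6, 11.8 and 9.40%), Kank2-203 (13.9, 1.71 and 16.6%), Ppt1-203 (6.97, 17.4 and 19.9%) and Rfx5-212. Rfx5-212 took 0.00503% in 1 standard library and 37.4 and 48.1% in the others, above every KO ladder library.

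Among transcripts with a lower share in KO, 6 had their standard values on the WT side, 8 on the KO side and 2 were divided. Cul2-202 (71.1, 71.9 and 70.7%), Mtmr2-203 (50.4, 35.1 and 36.0%), Vldlr-201, Syt16-201, Uqcc1-212 and Ermp1-201 were on the WT side. Fntb-203, the largest fall in level, had no count in any standard library, as in KO. Ppp1cb-203 took at most 1.64% there and Rragc-205 at most 1.20%, and Glod4-207 took 1.64, 4.95 and 0%. Capn7-202, at 15.9, 13.8 and 10.5%, lay below its KO ladder values, and Adgrb1-206, Tgds-202 and Kdm5d-204 were also on the KO side. Gusb-206 and Zfp383-202 were divided. The library types differ in read length, depth and the targets quantified. Ladder libraries were quantified over 150173 targets, standard libraries 1 and 3 over 116067 and standard library 2 over 107368. Each share was taken over the library's own targets, so the competing isoforms of a gene can differ. The part of these differences in the shares was not tested.

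Splicing factors are the textbook hosts of poison exons, so their members were counted by family. Of 8 tested NMD transcripts of SR proteins, 1 was higher and 1 lower in KO, and of 15 of hnRNP genes 3 were higher and 3 lower, beside 18.2% higher and 19.1% lower over all targets. Of 38 from other splicing factors 2 were higher and 8 lower. Ribosomal protein genes gave 3 higher and 2 lower of 22, m6A genes 0 higher and 1 lower of 3, and NMD factor genes 0 of 4 (1 at an unadjusted p of 0.05 in edgeR, 0 in DESeq2 after adjustment). The median log2 values of these lists, in the same order, were -0.06, -0.26, -0.33, 0.03, -0.36 and -0.51, beside -0.06 over all targets.

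Srsf6-201 contains the poison exon of the SR protein SRSF6. It had 20.3, 19.7, 28.5 and 28.3 CPM in the WT ladder libraries and 40.6, 41.0, 43.2 and 39.0 CPM in the KO ladder libraries, without overlap (log2 0.76, SE 0.15, adjusted p 0.0046, edgeR). Its share of Srsf6 was 21.3 ± 3.70% in WT and 32.3 ± 1.06% in KO (SD, n = 4 each; diffSpliceDGE adjusted p 0.21), and the gene total did not pass (log2 0.10, edgeR adjusted p 0.42). Srsf9-205 fell (log2 -0.51, SE 0.14, adjusted p 0.021, edgeR), a call that was lost without KO library 1, KO library 2 or WT library 3 and without the filter on low counts (adjusted p up to 0.0995). Among hnRNP genes, Hnrnpdl-201 had 17.8, 15.2, 24.3 and 21.7 CPM in the WT ladder libraries and 26.0, 38.6, 39.6 and 35.7 CPM in the KO ladder libraries, without overlap. This rise (log2 0.83, SE 0.19, adjusted p 0.0093, edgeR) came with a share of 12.2 ± 1.20% in WT and 22.8 ± 3.51% in KO (SD, n = 4 each; diffSpliceDGE adjusted p 0.03). HNRNPDL is known to regulate the splicing of its own mRNA.

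Hnrnph3-204 rose (log2 0.75), while Ptbp2-208 and Hnrnpd-208 fell (log2 -0.92 and -0.63). PTBP2 is the neuronal relative of the splicing repressor PTBP1. The Ptbp2-208 skipping event removes a 34-base exon, and the transcript was 1.34 ± 0.283% of Ptbp2 in WT and 0.780 ± 0.221% in KO (SD, n = 4 each). The call of Hnrnpd-208 was lost without the filter on low counts (adjusted p 0.052). Among the other splicing factors, Rbm39-224 and Prpf4b-202 fell (log2 -1.61 and -1.50), as did their genes (-0.57 and -0.85). RBM39 is a splicing coactivator and PRPF4B a kinase of the spliceosome. Mettl3-206, from the gene of METTL14's partner, fell (log2 -0.74), a call lost without any of 5 single libraries (KO 2, 3 and 4, WT 3 and 4) and without the filter on low counts (adjusted p up to 0.062).

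In the ribosomal protein genes, the members that passed were minor ones. Rps18-211 and Rpl13a-212 rose (log2 1.40 and 0.90) at 0.0273% and 0.0598% of their genes in KO. Rpl6-208 fell from 3.27 ± 1.21% to 0.642 ± 0.389% of Rpl6 (SD, n = 4 each; diffSpliceDGE adjusted p 4.3e-06). Rps13-205, with a retained intron, fell as well (log2 -1.26), and this call was lost without KO library 3, WT library 1 or WT library 3.

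The genes of the decay machinery were measured beside their substrates. Of 26 NMD factor genes, 5 were higher and 1 lower in KO (edgeR, gene level), beside 26.4% and 27.2% of all genes. Upf1, the helicase at the centre of the pathway, averaged 59.4 ± 9.31 CPM in WT against 82.9 ± 10.3 in KO (SD, n = 4 each; log2 0.48, adjusted p 0.0094). Smg8, a regulator of the SMG1 kinase, rose by log2 0.59, and the exon junction complex genes Magohb and Rbm8a by 0.44 and 0.36. The cap-binding genes moved apart, with Ncbp2 higher (log2 0.51) and Ncbp1 lower (log2 -0.35). When the test asked for a change beyond 1.5-fold, 0 of the 26 passed in edgeR (0 at an unadjusted p of 0.05), while DESeq2 called 7 higher and 1 lower with no such minimum. Without WT library 4 the edgeR counts were 3 higher and 3 lower, and without KO library 1 they were 4 higher and 2 lower.

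Of 10 genes known as decay targets through upstream frames or as hosts of small nucleolar RNAs, 1 was higher and 5 lower, beside 26.4% and 27.2% of all genes. Gadd45a, a stress gene whose mRNA is a classical NMD substrate, averaged 17.1 ± 1.13 CPM in WT against 28.8 ± 1.72 in KO (SD, n = 4 each). Snhg5, Snhg12, Gadd45b, Atf4 and Ddit3 were lower, for example Snhg12 at 40.4 and 26.4 CPM. Gas5, a snoRNA host that is degraded through NMD, averaged 308 and 351 CPM and did not pass (adjusted p 0.33).

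A further comparison set WT ladder against WT standard libraries. These differ in size separation, read length, read pairing, depth and the set of targets quantified. They were compared over the 105882 targets in every file (6196 members). Of 3195 members tested, 664 (20.8%) were higher in ladder libraries and 782 (24.5%) lower, while 24.0% and 23.4% of all targets were, or 47.4% in either direction (edgeR adjusted p of 0.05). Libraries did not overlap for 658 and 750, against 23.7% and 22.3% (46.0% in either direction) of all targets. The share of counts in NMD transcripts over these targets was 3.21 to 3.74% in ladder and 4.22 to 5.30% in standard libraries. Without Lars2-209 the order turned, with 2.33 to 2.42% in ladder and 2.21 to 2.22% in standard libraries.

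Medians were taken by transcript length. Members of 500 to 1000 bases had a median log2 ladder over standard of -0.68 (888 tested), where coding transcripts of that length had 0.01 (4350). Between 1000 and 2000 bases the medians were 0.27 for NMD (688) and 0.84 for coding transcripts (6105). Between 2000 and 4000 bases they were 0.30 (1058) and 0.21 (10729), and above 4000 bases 0.09 (430) and -0.25 (7603). The 131 members up to 500 bases had -0.16 and coding transcripts -0.11.

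**Figure D4:**
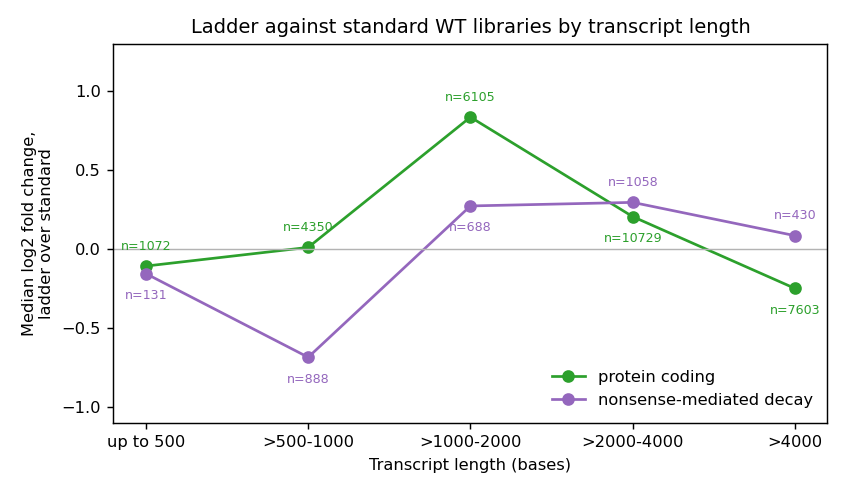
Median log2 fold change, WT ladder over WT standard (y axis), in bins of transcript length (bases, x axis) for NMD and protein-coding transcripts, with the number of transcripts tested beside each point. The NMD median lies below the coding median most clearly between 500 and 2000 bases and above it beyond 4000 bases.

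Single members went from 0 or near 0 counts, after rounding, to high levels between the library types. Dgkz-212, from the gene of a diacylglycerol kinase, had 189, 127, 261 and 255 CPM in the ladder libraries and 0, 0 and 0 CPM in the standard libraries, at least 3426-fold higher in ladder libraries against 3 counts over the standard group. Pold1-208, from the gene of the catalytic subunit of DNA polymerase delta, was at least 1157-fold higher by the same measure, and Irf7-212, Chid1-202 and Luc7l2-209 at least 1015, 562 and 422-fold. Prpf4b-208 went the other way, with 0, 0, 0 and 0 CPM in the ladder libraries and 58.7, 57.5 and 54.4 CPM in the standard libraries, at least 5455-fold lower in ladder libraries. Tardbp-208, from the gene of the RNA-binding protein TDP-43, had 0, 0, 0 and 0 CPM in the ladder libraries and 52.7, 34.2 and 31.8 CPM in the standard libraries, at least 3795-fold lower. Tcf12-220 and Smarcad1-210 were likewise without counts in WT ladder libraries (at least 3484 and 2971-fold lower), and Ankrd11-203 had 1 count there over 4 libraries. None of these 10 had its intron chain in any long-read assembly, which asks for a match of all introns. An intron annotated in Ankrd11-203 alone was, however, in the native WT StringTie assembly and in all cDNA assemblies.

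Long reads can show a whole intron chain in 1 molecule, and exact matches of all introns were sought in the deposited assemblies. StringTie, run without a reference annotation per the file headers, contained 221 members in native WT, 168 in native KO, 282 in cDNA WT and 252 in cDNA KO. FLAIR contained 308, 299, 330 and 303. The FLAIR assemblies of native WT and native KO are not separate observations, since 22686 of the 23430 transcripts of the KO assembly had the same name and exons in the WT assembly, 12342 of them without an annotated name. Any of the 8 assemblies held 646 of the 6924 members, any StringTie assembly 465 (6.72%) and all 4 StringTie assemblies 64. By the same count 25.2% of coding and 5.23% of retained-intron transcripts were in a StringTie assembly. Since 76 members share their chain with a transcript of another class, 15 of the 465 cannot be assigned to NMD alone.

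The share found increased with the short-read level for NMD and coding transcripts, and in each range of level it was lower for NMD transcripts. In native WT it was 1.32% of 6067 members below 1 TPM in WT ladder libraries, 13.8% of 559 between 1 and 5 TPM, 20.5% of 219 between 5 and 20 TPM and 24.1% of 79 above. Coding transcripts stood at 3.31, 34.8, 60.7 and 79.8%, and retained-intron transcripts at 0.780, 4.92, 10.4 and 7.41%. The cDNA WT assembly gave 2.03, 15.9, 23.3 and 24.1% for NMD and 5.44, 53.2, 74.9 and 79.2% for coding transcripts. These are descriptions of pooled assemblies, with no test. The start was marked as not found for 2024 of the 6924 members, but for 34 of the 465 in a StringTie assembly. The part of incomplete starts in the difference from coding transcripts was not tested.

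**Figure D5:**
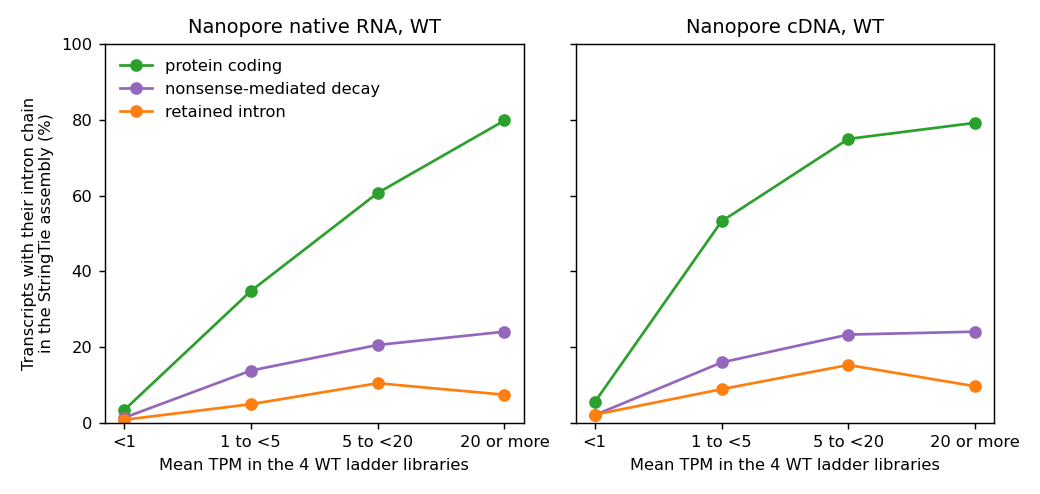
Percent of annotated transcripts whose exact intron chain is in the WT StringTie assembly (y axis) by mean TPM in WT ladder libraries (x axis), for NMD, protein-coding and retained-intron transcripts. In native RNA above 20 TPM, 24.1% of NMD and 79.8% of coding transcripts were found.

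Ddx5-208 was the member with the highest native TPM among those found in both the native and the cDNA StringTie assembly of WT, at 62.6 TPM in native WT and 24.5 TPM in native KO, and its chain was in all 8 assemblies. DDX5 is an RNA helicase of splicing and ribosome biogenesis. Short reads gave it 50.5 ± 1.90% of Ddx5 in WT and 31.6 ± 1.12% in KO (SD, n = 4 each; diffSpliceDGE adjusted p 0.079), with a lower level in KO (log2 -0.58, SE 0.13, adjusted p 0.0077, edgeR). Cenpa-202, from the gene of the centromeric histone, was in all 8 assemblies too. It held 50.6 ± 2.25% of Cenpa in WT and 50.9 ± 2.90% in KO (SD, n = 4 each). Naa60-201, Tmem234-210 and Rpl12-201 were also in all 8, and Naa60-201 held 94.0% and 92.6% of its gene. The other named members with long-read support were Mettl5-204, Exosc4-203 and Abhd12-204, in 6, 7 and 6 of the assemblies. Long-read and short-read shares differed. In native WT StringTie, Ddx5-208 held 62.6 of its gene's 393 TPM and Cenpa-202 51.3 of 173. Abhd12-204 and Exosc4-203 held all of their genes' TPM there (60.7 and 33.6). By short reads these 2 held 1.67% and 1.28% of their genes on average in WT ladder libraries.

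Members that changed in short reads were set against the long reads as well. Of the 846 called between genotypes, 131 (15.5%) had their chain in a StringTie assembly, beside 285 (13.4%) of the 2125 that were tested and not called. Of the 20 named for their change in level, 1 was in a StringTie assembly and 3 in any assembly, and of the 16 named for usage 5 and 7. Luc7l-206 was in both native and both cDNA StringTie assemblies, and Hnrnpdl-201 and Hnrnph3-204 were in all 8. In native StringTie, Luc7l-206 had 13.2 of its gene's 23.8 TPM in WT and 5.79 of 13.7 in KO. Hnrnpdl-201 had 20.8 of 151 and 22.1 of 221, so neither share was larger in KO. In cDNA the share of Luc7l-206 was larger in KO (1.14 of 3.72 and 1.41 of 3.87). That of Hnrnpdl-201 was not (2.10 of 12.6 and 2.94 of 19.6). Hnrnph3-204 had 1.70 of 56.8 in native WT and 4.32 of 35.5 in native KO, where its share was larger. Srsf6-201 was in the native WT assemblies but neither native KO assembly, and in all 4 cDNA assemblies. Of the members called higher in KO, 15 had their chain in the native StringTie assembly of WT alone, 12 in that of KO alone and 19 in both. For those called lower the numbers were 14, 8 and 8. In cDNA they were 14, 19 and 32 for the higher and 25, 6 and 13 for the lower members.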

How the data were processed

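Short-read libraries were quantified by the authors with kallisto, of a version not given here, and the deposited files hold expected counts (est_counts) and TPM per target, per the file headers. Long reads were mapped with minimap2 2.17 to GRCm38, per the submitters' processing notes, and assembled with StringTie 2.0, per the file headers, or FLAIR. The deposited assemblies list exons and, for StringTie, TPM. Each value of a target therefore depends on how kallisto divided reads among overlapping isoforms.

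Expected counts were rounded to whole numbers and tested with edgeR 4.0.16 (quasi-likelihood, TMM scaling, filterByExpr) in R 4.3.3, over all targets or over counts summed per gene. CPM were computed from these counts with TMM scaling. Usage within a gene was tested with diffSpliceDGE. In simulated data, a large part of its calls fell in unchanged genes, so there its adjusted p understated the error. The simulation changed far fewer transcripts than were called in these data, so the size of the error here is not known. The absence of overlap between the libraries' shares is therefore also given. An alternative, limma 3.58.1 on log odds (with 0.5 added), was tried after the data had been seen. Adjusted p is Benjamini-Hochberg at 0.05. DESeq2 1.42.0 was an alternative. The members, lists and alternatives were chosen with earlier results of these data known. A permutation test had been planned for the share of counts in the class, and is not given because a score over chosen members was not to carry a p.

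Named transcripts had regular symbols, an adjusted p under 0.05 and no overlap of libraries: the 10 largest rises and falls in level (average log2 CPM of 0 or more), the 8 in mean share (genes of average log2 CPM 2 or more), the 5 between library types, and up to 2 per list and direction. The 10 highest in TPM and the 8 highest in native WT long reads (chain in native and cDNA WT) were added, 2 of which are not reported here. Precision follows depth: the standard libraries were far shallower than the ladder libraries, and a count of 0 allows up to 3 counts over a group. Intervals of this kind cover counting error only.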

Additional observations from a re-analysis of the deposited data

Results flagged for a closer look

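In 8 cases 1 ladder library stood apart from the other 3 of its group by Dixon's test at 95%, which chance does in about 1 in 20 groups. In KO, 1 library had 13.3 CPM of Abhd16a-207, 0.0936 CPM of Ppp1cb-203, 6.26 CPM of Slco1c1-202 and 0.742 CPM of Uqcc1-212, each the highest of its 4. In WT, 1 library had 0.0478 CPM of Kank2-203, 0.454 CPM of Rfx5-212 and 7.07 CPM of Syt16-201, again the highest of its group. The share of Abhd16a-207 in its gene was 0.0141% in the highest WT library, from an estimated count that rounds to 0. The genotypes did not overlap in any of these 8 cases, which the rules that named these transcripts required. For Kank2-203 in WT and Ppp1cb-203 in KO the other 3 values were 0, where any count sets a library apart. The number of groups examined is not given here, so the 8 cases cannot be set against that rate.

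The other values to look at again come from the long-read assemblies, which entered no test. StringTie transcripts on the last exon of Lars2-209 summed to 140883 TPM in cDNA WT and 119334 TPM in cDNA KO, against 32.2 and 45.7 TPM in native WT and KO.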

How the results depend on the processing

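Counts of called members kept within 1.5 times of the reported ones under DESeq2, its size factors, no filter on low counts and the targets shared by all files (KO against WT: 359 to 487 higher, 341 to 457 lower). A test beyond 1.5-fold gave 181 higher and 180 lower members, and 0 higher and 0 lower NMD factor genes (0 at an unadjusted p of 0.05). Without the filter 0 NMD factor genes were lower in edgeR (1 at an unadjusted p of 0.05), and 1 was in DESeq2. With limma on log odds, added after the data had been seen, usage gave 200 higher and 335 lower. Leaving out 1 library at a time gave 323 to 372 higher and 366 to 399 lower members, 75 to 93 and 104 to 128 in usage, 129 to 145 and 243 to 283 genes by class, and 3 to 6 higher and 1 to 3 lower NMD factor genes. The share of counts in the class, KO minus WT, was -0.296 percentage points as reported, 0.0390 by TPM and 0.0534 without Lars2-209. Ladder minus standard was -1.32 points, -0.672 by TPM and 0.162 without Lars2-209. Chains numbered 299 with FLAIR in native KO, and an intron of the member's own was found for 516 members in cDNA WT and 452 in cDNA KO.

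Replicate numbers did not pair the libraries: deviations of same-numbered WT and KO libraries correlated at -0.05, 0.07, -0.04 and 0.04, and those of ladder and standard libraries at 0.01, 0.00 and 0.03. With a replicate block the members called were 329 higher and 365 lower in level, 86 and 130 in usage and 155 and 301 by class, and 273 and 469 between library types, where WT ladder library 4 has no partner and was left out. With the block the named calls of Slco1c1-202, Srsf9-205, Hnrnpd-208 and Mettl3-206 in level and of Slc37a3-206 and Rragc-205 in usage did not pass (adjusted p 0.052 to 0.084). The block left the NMD factor genes at 5 and 1 and the class share at -0.296 (genotypes) and -1.26 points (library types). Of 60 named results, 40 kept their call under every alternative, 20 lost it under at least 1, and 0 reversed. The standard libraries' depth limits what can be said of members without counts there.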
